A study of Mus musculus with 6 samples.

Results

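Pacemaker and gap junction genes were examined in the kidney and the ureter of newborn mice. The set held 9 genes: the receptor tyrosine kinase gene Kit, its ligand gene Kitl, the calcium-activated chloride channel gene Ano1, the hyperpolarization-activated cation channel genes Hcn2, Hcn3 and Hcn4, and the connexin genes Gja1, Gjc1 and Gja4. Members were the rows of the deposited gene table with these symbols, and each symbol was found once, giving 9 of 24532 genes. Bulk RNA-seq had been made from whole tissue at postnatal day 1 (PN1) in 6 libraries, 2 from Ahnak KO kidney, 2 from WT kidney, 1 from Ahnak KO ureter and 1 from WT ureter. Ahnak KO mice carried a disruption of exon 5 of the Ahnak gene, and WT mice of the same age were the controls. RNA came from 2 to 4 kidneys or ureters, the number for each library was not given, and the methods speak of 2 biological replicates but do not tie them to a tissue. The labels did not say whether replicate libraries came from separate animals. Where they did not, a p-value measures the spread between these libraries only. Within each genotype, the column headers of kidney replicate 2 and of the ureter library end in the same numbers. What these numbers mean was not given, and the fits of all 6 libraries treat the libraries as independent. The titles of both ureter libraries call them kidney, and their source field calls them ureter.

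Peristalsis of the ureter moves urine from the renal pelvis to the bladder in waves that start near the kidney. Pacemaker activity in this region has been attributed to specialised smooth muscle cells, HCN channels carry an inward current on hyperpolarization, and KIT marks the interstitial cells of Cajal that pace the gut, where ANO1 carries a chloride current. Connexins form the gap junctions through which electrical activity passes from cell to cell. KIT is also the receptor of mast cells and melanocytes, and ANO1 and connexins are found in epithelia and vessels as well as muscle.

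Library totals ranged from 36410246 to 66095616 estimated counts, so 3 counts, the limit used for a gene listed at 0, stood for 0.0454 to 0.0824 CPM, the count scaled to library size. Ahnak itself was still counted in every library, at 131 and 139 CPM in Ahnak KO kidney, 183 and 189 CPM in WT kidney, 634 CPM in Ahnak KO ureter and 728 CPM in WT ureter, and since the counts are per gene they are no check of the disrupted exon. The tissue labels were checked against markers. The summed level of 7 urothelial genes was 89.4 to 107 TPM, the authors' unit scaled by transcript length and library, in kidney against 8100 and 8740 TPM in ureter, and that of 8 nephron genes was 1060 to 1190 TPM in kidney against 0.125 and 0.944 TPM in ureter. Nphs1, Slc34a1, Umod, Slc12a1 and Aqp2 were listed at 0 in both ureter libraries. Ahnak KO kidney replicate 1 stood apart in Xist, at 3096 CPM against 0.377 to 0.655 CPM elsewhere, and the ribosomal transcript Rn45s took 8.06% of the counts of the Ahnak KO ureter library against 0.496 to 0.632% in the others.

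Of the members, Kit, Ano1 and Gja1 are shown by the bases before their RefSeq start sites, read from the GRCm38.p6 assembly. Capitals mark GC boxes (GGGCGG on either strand) and AP-1 sites (TGANTCA), and bases that lie in an annotated exon were left out. Of the 32851 promoter windows of 250 bases in the same table, 32.7% held a GC box and 6.75% held an AP-1 site. The Kit stretch lies at chr5:75574737-75574915 on the plus strand, the Ano1 stretch at chr7:144738593-144738823 on the minus strand, inside the longer span of the Ano1 gene, and the Gja1 stretch at chr10:56377050-56377299 on the plus strand.
Kit: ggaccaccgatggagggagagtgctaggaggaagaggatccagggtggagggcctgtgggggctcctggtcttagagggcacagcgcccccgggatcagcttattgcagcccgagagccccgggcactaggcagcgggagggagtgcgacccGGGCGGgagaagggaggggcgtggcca
Ano1: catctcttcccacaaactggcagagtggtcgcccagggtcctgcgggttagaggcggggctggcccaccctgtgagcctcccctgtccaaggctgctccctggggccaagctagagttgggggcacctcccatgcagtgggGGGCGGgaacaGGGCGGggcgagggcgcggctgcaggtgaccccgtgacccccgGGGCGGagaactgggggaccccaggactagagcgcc
Gja1: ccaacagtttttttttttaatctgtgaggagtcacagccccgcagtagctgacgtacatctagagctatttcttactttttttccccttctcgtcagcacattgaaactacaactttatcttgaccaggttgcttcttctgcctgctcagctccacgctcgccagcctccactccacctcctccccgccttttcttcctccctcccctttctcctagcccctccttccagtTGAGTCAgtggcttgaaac
The Kit window held 1 GC box and the Ano1 window 4, of which 3 lie in the stretch printed. The Gja1 window held no GC box and 1 AP-1 site, 19 bases before the start. GC content was 70.8% for the 250 bases before Kit, 72% for Ano1 and 50% for Gja1, against a median of 52.4% over all windows. A TATA box (TATAAA) was found in none of these 3 windows and in 12.4% of all windows, and a CArG box in none of the 3 and in 1.47% of all. These matches describe letters only. Windows of Kitl, Hcn2, Hcn4 and Gja4 were searched as well and are not shown. That of Kitl held a TATA box 25 bases before its start. Hcn3 and Gjc1 had no promoter window to search.

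The order of the 9 genes by level was not the same in the 2 tissues. In the 4 kidney libraries, the connexin genes Gja1 (82.2 ± 7.27 TPM, SD, n = 4) and Gjc1 (62.3 ± 1.77 TPM) stood highest. Kitl (30 ± 3.61 TPM) and Ano1 (23.8 ± 2.72 TPM) came next, and their libraries overlapped. Kit (16.3 ± 1.62 TPM) and Gja4 (14.2 ± 2.42 TPM) also overlapped each other. The 3 HCN genes were lowest, at 1.70 ± 0.514 TPM for Hcn3, 0.785 ± 0.395 TPM for Hcn2 and 0.682 ± 0.380 TPM for Hcn4, and neighbours in this order overlapped. In the 2 ureter libraries Ano1 was highest, at 96.9 and 69.8 TPM, followed by Kitl at 43.8 and 34.4 TPM. Gja4, Gjc1 and Gja1 lay between 17.1 and 28.2 TPM, and the libraries of Gja4 overlapped those of Gjc1 and Gja1. In Ahnak KO ureter Gja4 (17.1 TPM) lay below Gjc1 (20.1 TPM) and Gja1 (19.3 TPM). In WT ureter it (28.2 TPM) lay above Gjc1 (24.3 TPM) and Gja1 (19.2 TPM).

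**Figure D1:**
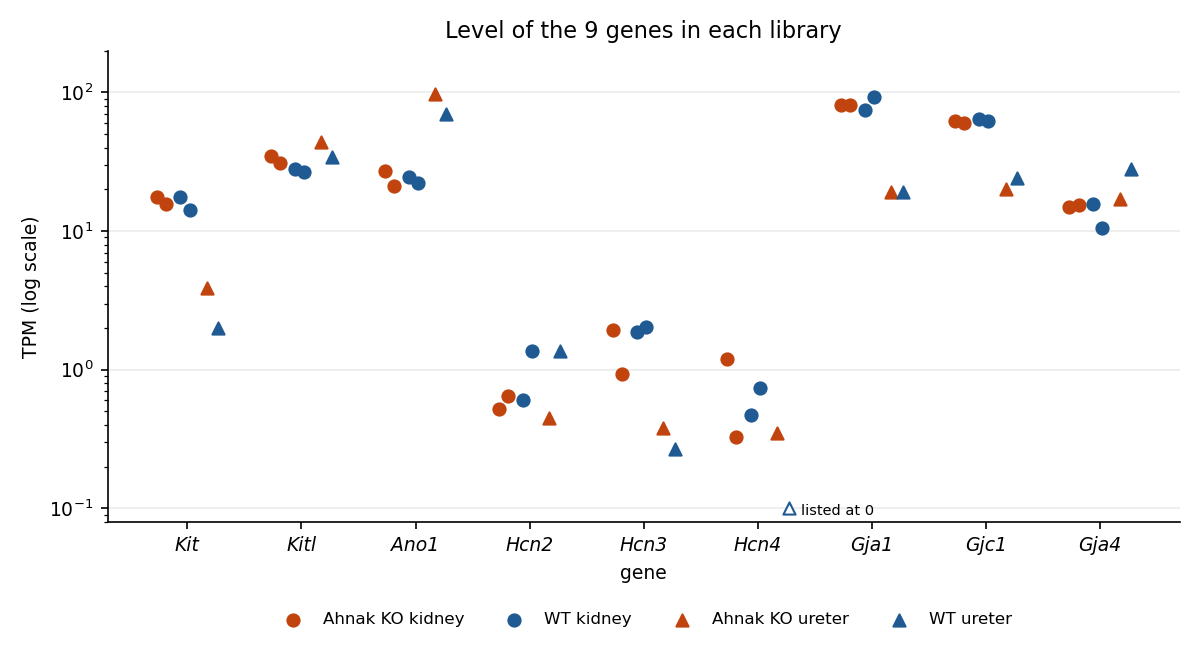
Level of each of the 9 genes in TPM (log axis) in the 6 libraries; circles are kidney, triangles ureter, orange Ahnak KO and blue WT, and an open triangle at the bottom marks Hcn4 listed at 0 in WT ureter. Ano1 and Gja4 lie higher in both ureter libraries than in all 4 kidney libraries, while Kit, Hcn3, Gja1 and Gjc1 lie lower.

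Ureter and kidney were then compared over all 6 libraries with genotype as a second term. Of the 9 genes, 3 were higher in ureter (Ano1, Gja4 and Kitl), 4 were lower (Kit, Hcn3, Gja1 and Gjc1) and 2 did not pass the test (Hcn2 and Hcn4), by edgeR's quasi-likelihood test at an adjusted p of 0.05. Tissue differences were common throughout: of 17557 genes tested, 42.6% passed, 20.3% higher and 22.3% lower in ureter. The members' count, 7 of 9, stands beside that share and is not a result particular to them. The median log2 difference of the 9 genes was -1.14, against -0.08 for all genes tested, and -0.37 for all genes when libraries were scaled by their totals alone. Whole tissues were compared throughout, so fewer cells of a type and less RNA per cell cannot be told apart.

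Kit, the receptor, was the lower of the pair in both tissues. Its counts were 2559 and 2315 in Ahnak KO kidney, 3013 and 2100 in WT kidney, 391 in Ahnak KO ureter and 306 in WT ureter. All 4 kidney libraries lay above both ureter libraries. On the log2 scale the difference of ureter from kidney was -2.13 (SE 0.28, adjusted p = 0.00141, edgeR's quasi-likelihood test), a level 4.37-fold lower in ureter.

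Kitl, which encodes stem cell factor, went the other way. It had 34.8 and 30.8 TPM in Ahnak KO kidney, 28.1 and 26.5 TPM in WT kidney, 43.8 TPM in Ahnak KO ureter and 34.4 TPM in WT ureter. In TPM the WT ureter library lay just below the highest kidney library, whereas in CPM with TMM scaling both ureter libraries (107 and 155 CPM) lay above all kidney libraries (66.8 to 87.5 CPM). Kitl was 1.69-fold higher in ureter (log2 0.76, SE 0.10, adjusted p = 0.00138, edgeR). The ratio of ligand to receptor in TPM was therefore 1.59 to 1.98 in the 4 kidney libraries and 11.3 and 17.2 in Ahnak KO and WT ureter.

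Among 22 genes of KIT signalling, 6 were higher in ureter, 3 were lower and 13 did not pass, with a median log2 difference of 0.17. Src, a kinase recruited by KIT, was higher by 0.97 on the log2 scale (SE 0.09, adjusted p = 3.68e-04, edgeR). Mapk3, which encodes ERK1, was higher by 0.94 (adjusted p = 4.48e-04, edgeR). Ptpn6, which encodes the phosphatase SHP-1, was higher by 0.83 (adjusted p = 0.00684, edgeR).

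Genes associated with interstitial cells of Cajal were mixed. Of 7 such genes, 4 were higher in ureter (Cd44, Cd34, Pdgfra and Kcnn3), 2 were lower (Prkcq and Thbs4) and 1 did not pass (Etv1). Which cells held these transcripts was not tested, so the counts are no measure of interstitial cells of Cajal. Cd44, an adhesion receptor, was higher by 3.38 on the log2 scale (SE 0.20, adjusted p = 6.07e-05, edgeR), with 3.50 to 6.25 TPM in kidney against 43.1 and 34.6 TPM in ureter. Prkcq, a protein kinase C gene, was lower (log2 -2.81, SE 0.25, adjusted p = 2.74e-04, edgeR), and Thbs4, a matrix protein gene, had 185 to 250 counts in kidney, 35 in WT ureter and was listed at 0 in Ahnak KO ureter. Etv1, a transcription factor of these cells in the gut, did not pass (log2 0.15, adjusted p = 0.547, edgeR).

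Mast cell and melanocyte genes were read beside Kit, since both cell types carry the receptor. Of 10 mast cell genes, 7 were higher in ureter, 2 were lower and 1 did not pass. Their summed level was 168 to 231 TPM in kidney, of which Hdc, the histidine decarboxylase gene, made up 127 to 195 TPM. In ureter it was 575 TPM in Ahnak KO and 526 TPM in WT, of which Gata2 made up 136 and 181 TPM. The mast cell protease genes Cma1 and Cpa3 had at most 1.96 TPM in any kidney library. In ureter, Cma1 reached 124 TPM in Ahnak KO and 78.4 TPM in WT, and Cpa3 reached 163 and 84.9 TPM. The genes that were lower in ureter were Hdc and Ms4a2, a subunit gene of the IgE receptor. Their part in the level of Kit was not tested. Of 7 melanocyte genes, Tyrp1 and Tyr were listed at 0 in every library, and Dct and Mlana were at 0 in both ureter libraries.

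Ano1 had the largest rise among the 9 genes. It was counted 3533 and 2779 times in Ahnak KO kidney, 3728 and 2920 times in WT kidney, 8671 times in Ahnak KO ureter and 9466 times in WT ureter. Both ureter libraries lay above all 4 kidney libraries, and the fitted tissue difference was 4.54-fold (log2 2.18, SE 0.16, adjusted p = 1.16e-04, edgeR). The ratio of Ano1 to Kit in TPM, 1.35 to 1.56 in kidney, was 25 in Ahnak KO ureter and 34.8 in WT ureter. Ano1 and Kit, both markers of the pacemaker cells of the gut, differed between these tissues in opposite directions.

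The list of other anoctamin genes was mixed. Of 10 genes, 9 anoctamins and the chloride-loading cotransporter gene Slc12a2, 1 was higher in ureter, 2 were lower and 7 did not pass. Ano10 was higher by 1.24 on the log2 scale (SE 0.15, adjusted p = 0.00105, edgeR), while Ano3 was lower (log2 -2.30, SE 0.62, adjusted p = 0.0242). Slc12a2, which brings chloride into cells, was lower (log2 -1.03, SE 0.12, adjusted p = 7.26e-04), with 66.2 to 79.5 TPM in kidney against 30.3 and 25.7 TPM in ureter.

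The tissue rise of Ano1 stood beside large rises of muscle and urothelial genes. All 10 smooth muscle genes and all 7 urothelial genes passed as higher in ureter, and the summed smooth muscle level was 564 to 689 TPM in kidney, 4680 TPM in Ahnak KO ureter and 6240 TPM in WT ureter. Of 13 cardiac and skeletal muscle genes tested, 11 were higher in ureter, 1 was lower and 1 did not pass, and the sum of the list was 32.1 to 35.3 TPM in kidney against 482 TPM in Ahnak KO ureter and 953 TPM in WT ureter. Of 7 endothelial genes, 1 was higher and 2 were lower, with 482 to 588 TPM in kidney and 370 and 446 TPM in ureter. Of 8 neuron and Schwann cell genes, 3 were higher and 1 was lower. The part of these cell types in the level of any member was not tested.

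**Figure D2:**
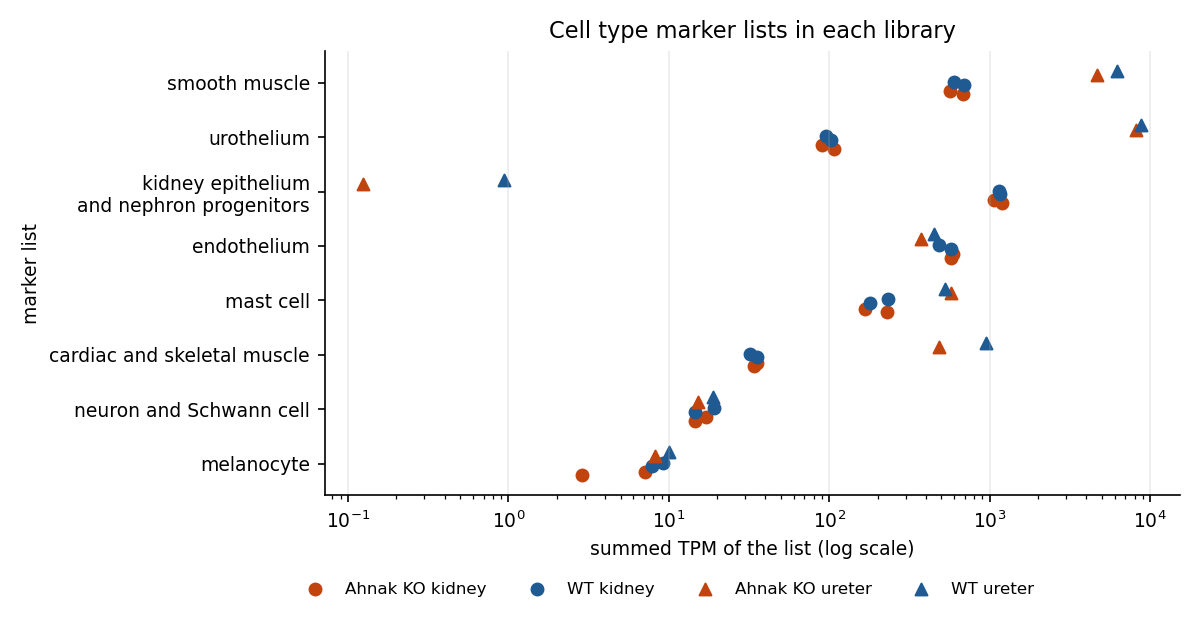
Summed TPM (log axis) of 8 cell type marker lists in the 6 libraries, with circles for kidney, triangles for ureter, orange for Ahnak KO and blue for WT. Smooth muscle, urothelium and striated muscle lists lie higher in both ureter libraries than in every kidney library, and the nephron list lies near 0 in ureter.

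The HCN genes were near the bottom of the range in both tissues. Summed over Hcn2, Hcn3 and Hcn4, they made up 1.90 to 4.14 TPM in kidney, 1.18 TPM in Ahnak KO ureter and 1.64 TPM in WT ureter.

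Hcn3 was the only HCN gene called between the tissues. It had 179 and 88 counts in Ahnak KO kidney, 203 and 187 in WT kidney, 24 in Ahnak KO ureter and 26 in WT ureter. All kidney libraries lay above both ureter libraries, and the level was 3.94-fold lower in ureter (log2 -1.98, SE 0.53, adjusted p = 0.0245, edgeR). The call was lost in 6 of 19 alternatives, among them without Ahnak KO kidney replicate 1 (adjusted p = 0.0645), without WT kidney replicate 1 (0.0653), without WT kidney replicate 2 (0.0766) and without WT ureter (0.111). Exons of Hcn3 share 711 bases with exons of Pklr, the pyruvate kinase gene on the opposite strand. Pklr had 298 to 575 counts in kidney and was listed at 0 in both ureter libraries, and since the strand setting of the counting was not given, reads of the 2 genes cannot be told apart in the shared bases.

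Hcn2 spanned the same range in both tissues. Its counts were 47 and 59 in Ahnak KO kidney, 64 and 125 in WT kidney, 28 in Ahnak KO ureter and 130 in WT ureter. The tissues overlapped, and the log2 difference of 0.46 was smaller than its SE of 0.53 (adjusted p = 0.518, edgeR).

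Hcn4, the main HCN gene of the sinoatrial node, had 128 and 36 counts in Ahnak KO kidney, 60 and 80 in WT kidney and 27 in Ahnak KO ureter, and was listed at 0 in WT ureter. The tissue difference did not pass (adjusted p = 0.279, edgeR), and it passed with WT libraries only (adjusted p = 0.00327), without Ahnak KO ureter (0.0220) and with each of the 4 groups given its own mean (0.0194). A listed 0 is uncertain in this table: among 489 genes with 20 to 30 counts in Ahnak KO ureter, 17.4% (95% Wilson interval 14.3 to 21%) were listed at 0 in WT ureter, and among 452 such genes in WT ureter, 35.0% (30.7 to 39.5%) were listed at 0 in Ahnak KO ureter.

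Of 5 genes for HCN channel partners, 4 were tested, 2 were higher in ureter and 2 did not pass. Lrmp (also called Irag2) was higher by 1.56 on the log2 scale (SE 0.45, adjusted p = 0.0304, edgeR), and Mrvi1 (Irag1) by 0.65 (SE 0.13, adjusted p = 0.00946).

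The connexin genes divided by tissue. Gja1, which encodes connexin 43, had 81.3 and 80.7 TPM in Ahnak KO kidney, 74.6 and 92.1 TPM in WT kidney, 19.3 TPM in Ahnak KO ureter and 19.2 TPM in WT ureter. The lowest kidney library lay well above both ureter libraries, which were nearly equal. Gja1 was 3.26-fold lower in ureter (log2 -1.71, SE 0.13, adjusted p = 1.45e-04, edgeR).

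Gjc1, which encodes connexin 45, had 62.5 and 59.9 TPM in Ahnak KO kidney, 64.2 and 62.7 TPM in WT kidney, 20.1 TPM in Ahnak KO ureter and 24.3 TPM in WT ureter. It was 2.21-fold lower in ureter (log2 -1.14, SE 0.10, adjusted p = 3.18e-04, edgeR). Gja1 stood above Gjc1 in every kidney library, by 1.16 to 1.47 times, and below it in both ureter libraries, at 0.961 and 0.793 of its level.

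Gja4, which encodes connexin 37 of vascular endothelium, was higher in ureter. Its counts were 710 and 748 in Ahnak KO kidney, 878 and 507 in WT kidney, 561 in Ahnak KO ureter and 1402 in WT ureter. In CPM, 8.32 to 12.6 in kidney and 18.8 and 27.3 in ureter, the tissues did not overlap, and the fold was 2.05 (log2 1.03, SE 0.24, adjusted p = 0.0154, edgeR). This call was lost in 7 of 19 alternatives, among them with library size alone (log2 0.75, adjusted p = 0.0585) and without WT ureter (log2 0.63, adjusted p = 0.130). Beside it, the 7 endothelial genes had a median log2 difference of 0.09 in the same fit, with Cdh5, the VE-cadherin gene, higher by 0.56 (adjusted p = 0.00662, edgeR) and 2 genes lower, while their sum in TPM was 482 to 588 in kidney and 370 and 446 in ureter. Their part in the level of Gja4 was not tested. Gja5, another connexin gene, was also higher in ureter (log2 1.52, SE 0.19, adjusted p = 0.00119, edgeR). It had 10.5 to 14.1 TPM in kidney, 21.2 TPM in Ahnak KO ureter and 32.2 TPM in WT ureter. Of 17 other connexin and pannexin genes tested, Gja5 among them, 5 were higher and 3 lower.

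The makeup of the connexin transcripts differed between the tissues. The 20 connexin genes listed summed to 198 to 216 TPM in kidney, 165 TPM in Ahnak KO ureter and 189 TPM in WT ureter. Gja1 made up 37.7 to 42.7% of that sum in kidney and 11.7 and 10.2% in Ahnak KO and WT ureter, and Gjc1 made up 29.1 to 32.4% and then 12.2 and 12.8%. Gja4 made up 4.92 to 7.96% in kidney, 10.3% in Ahnak KO ureter and 14.9% in WT ureter.

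Of 20 other connexin and pannexin genes, 17 were tested, and 5 were higher in ureter, 3 were lower and 9 did not pass. Gjb6, which encodes the epithelial connexin 30, was higher by 7.10 on the log2 scale (SE 0.33, adjusted p = 2.39e-05, edgeR), with 0.288 to 1.04 TPM in kidney, 59 TPM in Ahnak KO ureter and 62.5 TPM in WT ureter. It made up 35.7 and 33% of the connexin sum in Ahnak KO and WT ureter, the largest share of any connexin gene there. Gjb1, which encodes connexin 32, was lower (log2 -5.66, SE 0.31, adjusted p = 4.63e-05, edgeR), with 18.6 to 24.4 TPM in kidney and 0.222 and 0.423 TPM in ureter.

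**Figure D3:**
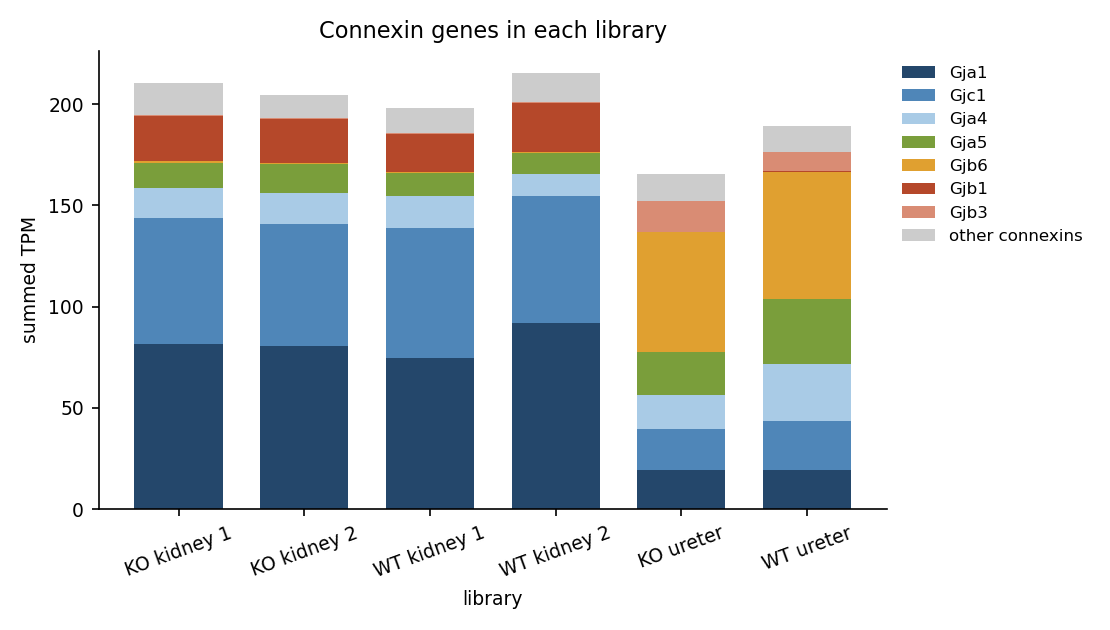
Summed TPM of 20 connexin genes in each library as stacked bars, with 7 genes drawn singly and the rest in grey; the bar labels give genotype, tissue and kidney replicate, and KO stands for Ahnak KO. Gja1 and Gjc1 fill most of each kidney bar, and Gjb6 is the widest band of each ureter bar.

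Ahnak KO and WT kidney were compared next, 2 libraries against 2. None of the 9 genes passed, all with an adjusted p of 1 by edgeR's quasi-likelihood test. Only 0.0121% of the 16481 genes tested passed, 2 genes in all, with 227 at an unadjusted p under 0.05, 1 of them a member, and DESeq2 called 44 genes and no member. The median log2 difference of the members was 0.07, against -0.004 for all genes.

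In CPM with TMM scaling, Kitl was the only member whose kidney genotypes did not overlap. In TPM those of Gjc1 did not overlap either, with Ahnak KO lower. With 2 libraries against 2, many genes can separate without any genotype effect. The share of all genes that did so was not counted, so this is not a result about the members. For Kitl, both Ahnak KO libraries (34.8 and 30.8 TPM) lay above both WT libraries (28.1 and 26.5 TPM), 32.8 ± 2.79 TPM against 27.3 ± 1.15 TPM (SD, n = 2 each). The log2 difference of Ahnak KO from WT was 0.30 (SE 0.11, 95% interval 0.02 to 0.57, unadjusted p = 0.0384, adjusted p = 1, edgeR), so it did not hold after adjustment.

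The intervals of the other well-counted genes were narrow and spanned 0. Kit differed by 0.08 (95% interval -0.28 to 0.45), Ano1 by 0.07 (-0.30 to 0.44), Gja1 by -0.01 (-0.32 to 0.31) and Gjc1 by -0.05 (-0.32 to 0.23) on the log2 scale, all in edgeR's fit. Gja4 differed by 0.24 (-0.34 to 0.81). The HCN genes had wider intervals, -2.14 to 0.68 for Hcn2, -1.43 to 0.61 for Hcn3 and -1.34 to 2.02 for Hcn4, and each of these reached past 2-fold. The sign of the difference turned when 1 library was left out for Kit, Ano1, Hcn4, Gja1 and Gja4. Among the listed partner, pathway and marker genes, none passed between the kidney genotypes with edgeR, and 1 had an unadjusted p under 0.05.

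Ahnak KO and WT ureter were compared by 1 library each, with no test. Past 2-fold on the log2 scale of CPM + 0.5 were 3 of the 9 genes, Kit and Hcn4 higher and Hcn2 lower in Ahnak KO ureter, against 10.2% of 16117 genes compared. Hcn2 and Hcn4 rest on few counts, whereas that share is over genes of all levels. The members' count is therefore not a result particular to them. The median log2 ratio of the members was 0.35, and that of all genes -0.02, or -0.20 with library size alone. Intervals given for the ureter cover counting error only, were computed without the pseudocount, and carry nothing on the spread between mice.

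Kit had 391 counts in Ahnak KO ureter and 306 in WT ureter, which with TMM scaling was 13.1 and 5.95 CPM. The log2 ratio was 1.07 (95% counting interval 0.92 to 1.36), and on FPKM it was 0.87, under 2-fold. Mast cell genes moved with it in part: Cpa3 had a log2 ratio of 1.12 and Cma1 of 0.84, while Mcpt4 had -0.75 and Tpsb2 0.10, and of 10 mast cell genes 7 were higher and 3 lower in Ahnak KO ureter. Their part in the ratio of Kit was not tested.

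Kitl and Ano1 were also higher in the Ahnak KO ureter library. The log2 ratio was 0.53 (95% counting interval 0.47 to 0.58) for Kitl and 0.66 (0.62 to 0.70) for Ano1. With library size alone these ratios were 0.33 and 0.47. Of the 10 smooth muscle genes 3 were higher and 7 lower (median log2 ratio -0.22), and of the 7 urothelial genes 5 were higher and 2 lower (median 0.14). The part of these tissues in either ratio was not tested.

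Hcn2 had 28 counts in Ahnak KO ureter and 130 in WT ureter, a log2 ratio of -1.04 (95% counting interval -2.07 to -0.83). The striated muscle list summed to 482 TPM in Ahnak KO ureter and 953 TPM in WT ureter, with 11 of 13 genes lower in Ahnak KO. Hcn2 stood at 1.37 TPM in WT ureter and also in WT kidney replicate 2, where that list summed to 32.1 TPM. The part of striated muscle in the ratio of Hcn2 was not tested. Hcn4, with 27 counts against a listed 0, was at least 15.5-fold higher in Ahnak KO ureter if a limit of 3 counts stands in for the 0. That value takes the uncertain listed 0 as measured and leaves out the counting error of the 27 counts, and on log2(CPM + 0.5) the ratio was 1.37. Hcn3 had 24 and 26 counts, and the interval of its log2 ratio of 0.35 (-0.19 to 1.53) spanned 0.

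Of the connexin members, none was past 2-fold. The log2 ratio of Ahnak KO to WT ureter was 0.19 (95% counting interval 0.08 to 0.30) for Gja1, which turned to -0.01 on FPKM, and -0.17 (-0.30 to -0.05) for Gjc1, which was -0.36 with library size alone. For Gja4 it was -0.52 (-0.68 to -0.39), with 17.1 TPM against 28.2 TPM, while endothelial genes had a median of -0.10, with 2 of 7 higher and 5 lower. Of 15 other connexin and pannexin genes compared, 3 were past 2-fold higher and 3 past 2-fold lower in Ahnak KO ureter. At any size 7 were higher and 8 lower, among the latter Gja5 with a log2 ratio of -0.42. The ratio of Gja4 to Gja1 in TPM was 0.885 in Ahnak KO ureter and 1.47 in WT ureter, both above the kidney range of 0.115 to 0.211.

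**Figure D4:**
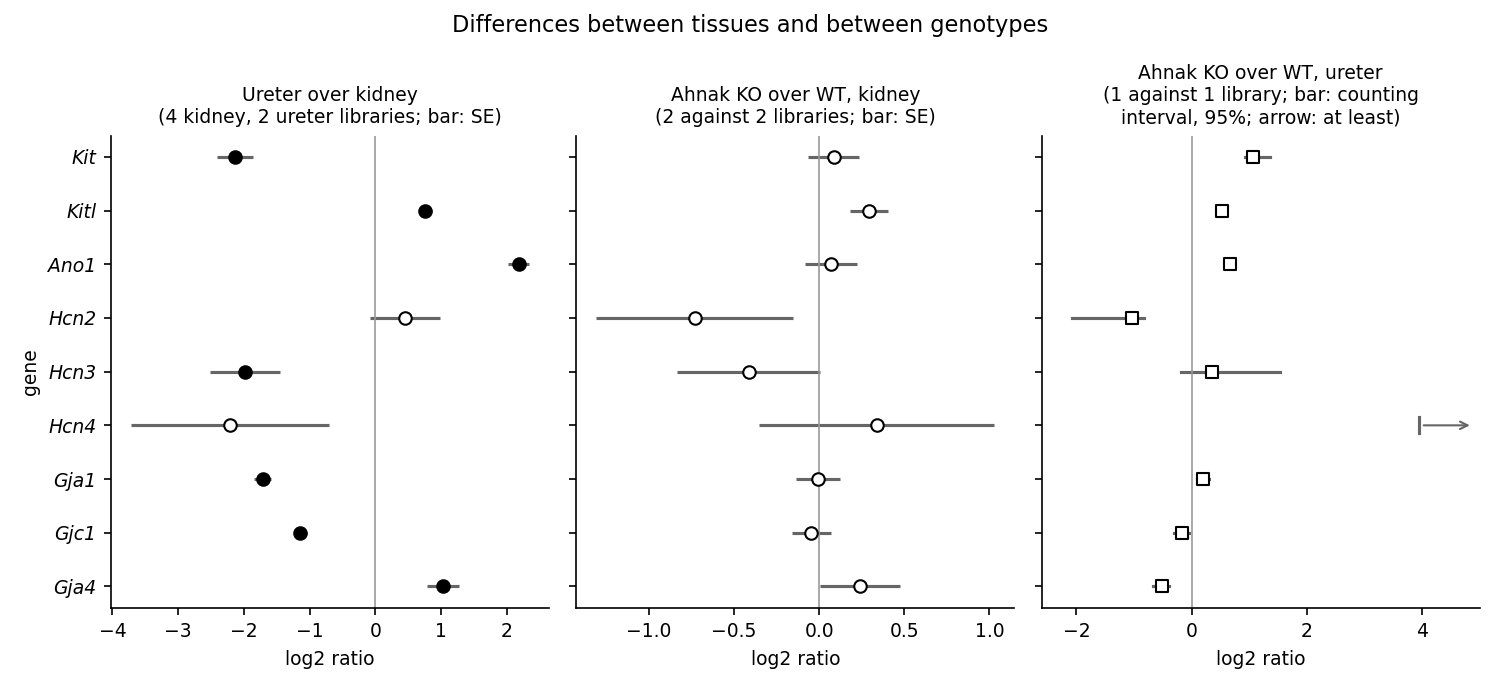
Log2 ratios of the 9 genes for ureter over kidney, Ahnak KO over WT kidney (points with SE; filled where the adjusted p is under 0.05) and Ahnak KO over WT ureter (squares with the 95% counting interval; the arrow for Hcn4 starts at the fold against 3 counts), each panel with its own axis. Of the tissue differences 7 are filled, none of the kidney genotype differences are, and the ureter panel has no test.

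Whether the genotype difference itself differed between ureter and kidney was tested as an interaction, in which the spread came from the 2 kidney pairs and the single ureter libraries were assumed to vary like them. None of the 9 genes passed, beside 0.108% of 17557 genes, 19 in all, with 2174 genes at an unadjusted p under 0.05, among them the members Kit and Hcn4, and 476 called by DESeq2, no member among them. Kit had the lowest p, with an interaction of 1.06 on the log2 scale (SE 0.28, unadjusted p = 0.00994, adjusted p = 0.249, edgeR). Hcn4 had an unadjusted p of 0.0127 and an adjusted p of 0.267, and Ano1 had 0.59 (SE 0.24, adjusted p = 0.408). In the same fit the ureter contrast had an adjusted p of 0.108 for Kit, 0.134 for Hcn4, 0.172 for Kitl and 0.178 for Ano1.

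The genes most like each member across the 6 libraries were taken from 106 listed genes, by Pearson's r of log2(CPM + 0.5), as a description of points that share the tissue split. For Kit they were Slc12a2 (0.988) and Gja3 (0.983), and for Kitl they were Pdgfra (0.969) and Cd34 (0.942). For Ano1 they were the smooth muscle cofactor gene Myocd (0.992) and the basal keratin gene Krt5 (0.991). Gja1 lay close to the tubular transporter gene Slc12a1 (0.994), and Gjc1 lay closest to Prkcq (0.996) and the nephron progenitor gene Six2 (0.995). Gja4 lay closest to Grb2 (0.984) and the endothelial gene Pecam1 (0.983). The lower-count genes had lower values for Hcn2, with Myh8 (0.835) and Mrvi1 (0.795), and Hcn3 lay closest to Hdc (0.945) and Ms4a2 (0.940).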

How the data were processed

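The data were bulk RNA-seq of 6 libraries. The authors deposited, for each gene and library, an estimated count given as a whole number, FPKM and TPM, and the latter 2 are their normalized values. The methods name TRIzol extraction, a stranded mRNA kit, Cutadapt, STAR, GRCm39 and Cufflinks, whereas the submitters' processing notes name Trimmomatic 0.38, HISAT2 2.1.0, StringTie 1.3.4b and mm10, so how the counts were made is uncertain, and the strand setting was not given. The labels' treatment text also names a premolar and PDL cells.

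Groups came from the labels. Estimated counts were tested with edgeR 4.0.16 in R 4.3.3 (TMM scaling, filterByExpr, quasi-likelihood F test, Benjamini-Hochberg adjustment over all genes, 0.05), a test planned for counts. The ureter over kidney fit had genotype and tissue as terms (3 residual degrees of freedom), and the kidney genotype and interaction fits had 2. A standard error is the absolute log2 difference over the square root of F. Ureter genotypes were compared by log2(CPM + 0.5) with TMM for genes with at least 10 counts in 1 library. DESeq2 1.42.0 and limma 3.58.1 gave alternatives. RefSeq (GRCm38.p6) and GENCODE annotation gave promoters, positions and exon overlaps, and Python 3.11.15 was used for these.

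The members, lists and tests were chosen with earlier results of these data known. All members were named. From each partner list the 3 largest differences among genes that passed were named some of which are not reported here, and marker lists were given as counts and sums. Hdc, Gata2, Ms4a2, Cma1, Cpa3, Mcpt4, Tpsb2, Etv1, Cdh5, Pklr, Gja5, Cd34, Pdgfra and Kcnn3 were named after their values were seen. Listed symbols not in the table were matched by RefSeq synonym (Irag1 as Mrvi1, Irag2 as Lrmp). The fit of kidney replicate 2 with the ureter libraries, the crossed block and the scaling without Rn45s were chosen after seeing the data.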

Additional observations from a re-analysis of the deposited data

How the results depend on the processing

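Kit, Kitl, Ano1, Gja1 and Gjc1 kept their tissue call and direction in all 19 alternatives run for them, with log2 differences of ureter from kidney of -2.70 to -1.63, 0.37 to 0.88, 1.75 to 2.47, -2.03 to -1.60 and -1.46 to -1.08. Hcn3 and Gja4 lost the call in some and Hcn4 gained it in 3, as given above. Between kidney genotypes and in the interaction no alternative called a member. The kidney difference turned sign when 1 library was left out, ranging from -0.0575 (without WT kidney replicate 2) to 0.239 for Kit, from -0.0945 (without Ahnak KO kidney replicate 1) to 0.216 for Ano1, from -0.821 (without Ahnak KO kidney replicate 1) to 0.970 for Hcn4, from -0.156 to 0.151 for Gja1 (0.0160 without Ahnak KO kidney replicate 1 and the highest without WT kidney replicate 2) and from -0.0183 (without WT kidney replicate 2) to 0.550 for Gja4. The cause was not tested.

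Counts over all genes moved more. Between kidney genotypes DESeq2 called 44 genes, limma 0 on either FPKM scale, a filter of at least 10 counts in every library 1, and leaving out 1 library 3 to 87. With a replicate block 0 genes were called, and with the crossed block 1; same-numbered kidney libraries deviated with r = -0.193 over 16468 genes, which is why the numbers were also crossed, and neither block changed a member's call. For the interaction DESeq2 called 476 genes, and leaving out 1 kidney library gave 4 to 270. Past 2-fold in ureter were 2775 genes with CPM + 0.1, 2654 on FPKM, 2936 on TPM and 3173 in the fit of 4 groups. With kidney replicate 2 and the ureter libraries only, whose column headers end alike within each genotype, 4831 genes (28.0%) differed between tissues. Of the 9 members 5 were called there, Kit, Kitl, Ano1, Gja1 and Gjc1, and Hcn3 and Gja4 were not. Each ureter genotype is 1 library, so no spread between mice stands behind its values.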
